A study of Mus musculus with 6 samples.

Results

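Ribosome densities of 35 mRNAs that mark the segments of the nephron were examined in 6 Ribo-seq libraries of mouse tissues. The mRNAs were a list of gene symbols, drawn up with earlier results of these data known, and were looked up among the 18437 protein-coding mRNAs listed in any library, and all 35 were found. Of these, 1 encodes a podocyte protein, 13 belong to the proximal tubule, 7 to the thick ascending limb, 8 to the distal convoluted and connecting tubule and 6 to the collecting duct. Ribo-seq sequences the mRNA fragments that translating ribosomes protect from nuclease. Each library came from a tissue of WT C57BL/6J mice at an age of 4 weeks that had received no treatment, with 1 library under each label, which were heart, lung, kidney, brain, colon and small intestine. The sex of the mice and the number pooled per library are not given in the sources used here. Values are RPKM, the reads on a coding sequence (CDS) scaled by its length and by all CDS reads of the library, so that levels of different mRNAs could be set side by side. There was no replicate of any label and no test was possible, so every difference below describes these libraries and carries only a 95% counting interval.

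The tissue labels were checked with 3 marker mRNAs per tissue, none of them among the 35, and 4 of the 6 labels did not match the markers found. Among the kidney markers, the glucose carrier Slc5a2 had 209 RPKM in the library labelled colon, 0.131 RPKM in the library labelled kidney and at most 8.94 RPKM elsewhere. The water channel Aqp2 had 27.9 RPKM in the library labelled colon, no reads in the library labelled kidney and at most 2 reads elsewhere. The markers of colon peaked in the library labelled kidney, those of small intestine in the library labelled brain and those of brain in the library labelled small intestine, while heart and lung markers peaked under their own labels. In each case all 3 markers were highest in the same library. The libraries are therefore called by their labels throughout, as in "the colon-labelled library", and a label is not taken as the tissue of origin.

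Between 4504853 and 10635031 reads per library lay on CDSs, the fewest in the colon-labelled library. Low counts were scarce in some libraries. Of the mRNAs with reads, 2.73% had 3 to 11 reads in the lung-labelled, 3.39% in the brain-labelled and 7.17% in the colon-labelled library, against 11.4% to 15.6% in the other libraries. Zeros were most frequent in the lung-labelled and brain-labelled libraries. Of the mRNAs with at least 10 RPKM in each of the other 5 libraries, 23 of 2644 had no reads in the lung-labelled library and 20 of 2745 in the brain-labelled library, against 0 to 4 in the remaining libraries. A member without reads is therefore described only as having no reads, which allows up to 3 reads, and reads are given beside RPKM where a result turns on few of them. Intervals treat reads as independent. They carry no molecular identifiers, so intervals and floors cover counting error only and are too narrow where copies of the same fragment were counted.

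**Figure D1:**
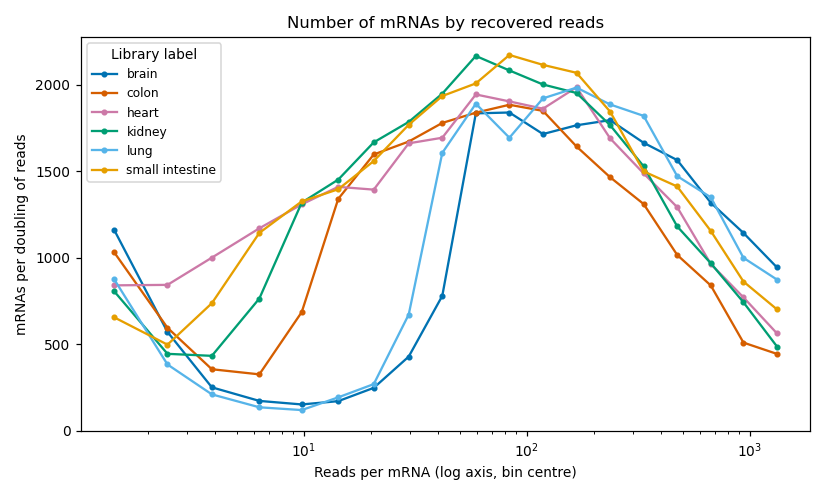
Number of mRNAs (per doubling of the read count, vertical axis) against reads per mRNA (log axis), 1 line per library, with lines joining bins of read counts. The brain-labelled and lung-labelled lines are low between 3 and 11 reads, where they hold 3.39% and 2.73% of the mRNAs with reads, and the heart-labelled line is high there with 15.6%.

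The nephron filters blood at the glomerulus and then recovers most of the filtrate segment by segment. Podocytes build the slit diaphragm of the filter, the proximal tubule takes back phosphate, sulfate, bicarbonate, small organic acids and filtered proteins, and the thick ascending limb takes up salt without water and secretes uromodulin. The distal convoluted and connecting tubules handle sodium, magnesium and calcium, and the collecting duct sets the final sodium, potassium and acid content of urine through principal and intercalated cells.

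Promoters were inspected because most members were densest in the same library. RefSeq promoters of build GRCm38.p6, which run from 250 bases before to 50 bases after a transcription start, matched 29 of the 35 members. Slc13a1, Bsnd, Calb1, Scnn1a, Slc4a1 and Slc4a9 had no entry. Motifs were searched on both strands, and shares are of 27025 genes with a promoter. CAAAGT, part of the sites of the factor HNF4A, lay in 8 of the 29 members and in 16.1% of all genes. Its full forms CAAAGTCCA and CAAAGTTCA lay in no member, and in 0.555% and 0.448% of all genes.

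TATAAA, the letters of a TATA box, lay in 7 of the 29 members and in 15.7% of all genes. It began at -43 from the start in Trpv5, -133 in Kcnj16, 0 in S100g and 16 in Slc34a1. In Kap, Slc26a4 and Slc12a3 it began at -31, -31 and -32 from the start. These promoters lie at chr6:133853668-133853767 (minus strand) for Kap, chr8:94329108-94329207 (plus strand) for Slc12a3 and chr12:31559985-31560084 (minus strand) for Slc26a4. They are shown with TATAAA in capitals, and Kap was among the mRNAs most restricted to the colon-labelled library.
Kap: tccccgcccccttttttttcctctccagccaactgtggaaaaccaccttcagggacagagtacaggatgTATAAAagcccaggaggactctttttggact
Slc12a3: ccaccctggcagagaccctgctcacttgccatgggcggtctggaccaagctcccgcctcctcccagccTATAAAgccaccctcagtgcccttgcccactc
Slc26a4: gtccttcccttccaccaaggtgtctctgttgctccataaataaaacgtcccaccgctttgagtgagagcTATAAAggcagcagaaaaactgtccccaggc
Estrogen response elements and NF-kB sites were found in no member's window, and in 0.0740% and 0.174% of all genes. Motifs this rare, like the full HNF4A forms, would seldom be met in 29 windows, so their lack does not set the members apart. These matches describe letters in the windows searched and are not evidence of bound factors.

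The library labelled colon had the highest RPKM for 26 of the 35 members. The same held for 14.4% of all mRNAs with reads. For 21 members its RPKM was at least 10-fold above every other library, counting a library without reads as 3 reads, against 1.4% of the mRNAs with an RPKM of at least 1 anywhere. The median log2 ratio of the colon-labelled library to the highest other library (0.1 RPKM added to both) was 3.81 over the members, with a range from -3.84 for Trpm6 to 8.83 for Kcnj1, and -1.91 over the 15238 mRNAs with an RPKM of at least 1 in any library. Every member had reads in the colon-labelled library. Its reads on the 35 mRNAs made up 9.10% of all CDS reads, against 0.0152% in the heart-labelled to 0.637% in the brain-labelled library. The remaining 9 members were highest elsewhere, namely Slc13a1 and Cubn in the brain-labelled, Slc9a3 and Trpm6 in the kidney-labelled, Scnn1a, Scnn1b and Scnn1g in the lung-labelled and Kcnj10 and Pvalb in the small intestine-labelled library. The values are ribosome densities of pieces of whole tissue, used here without RNA levels. Fewer cells of a type, less RNA per cell and fewer ribosomes per mRNA therefore cannot be told apart in any of these values.

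**Figure D2:**
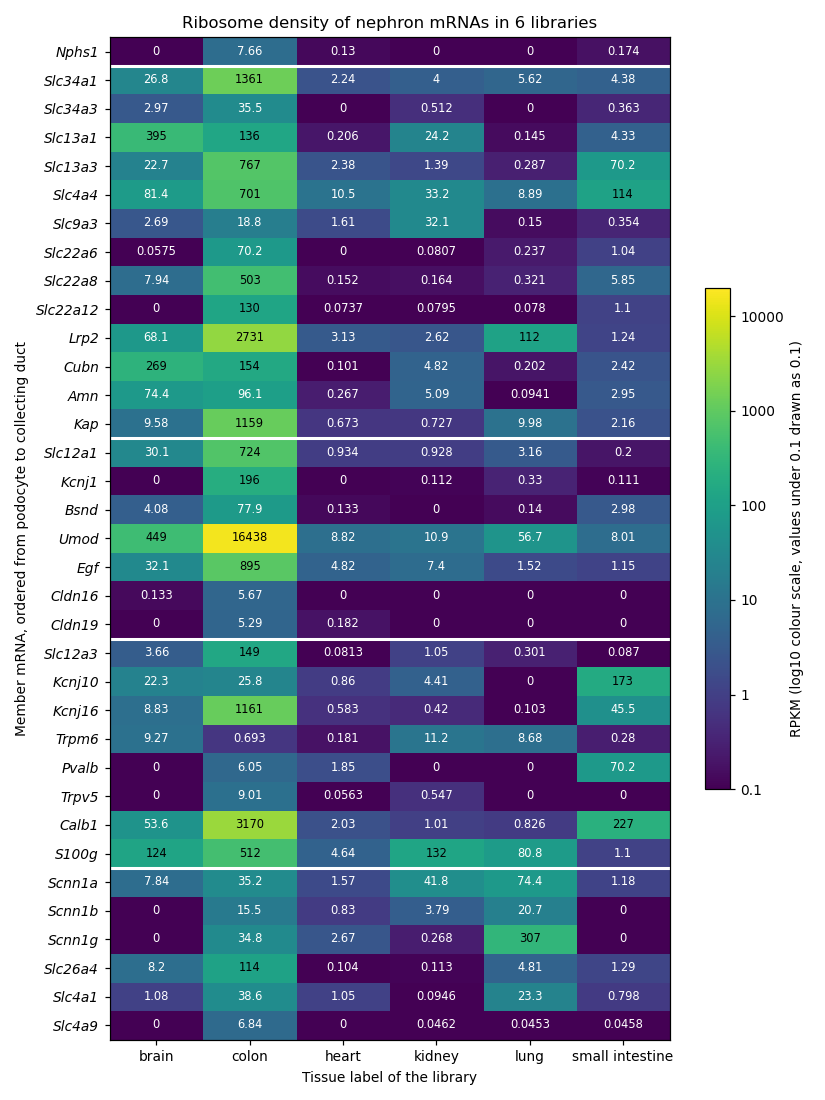
RPKM of the 35 members (rows, from podocyte to collecting duct, white lines between segments) in the 6 libraries (columns, by label), with colour on a log10 scale and the RPKM printed in each cell. The column labelled colon holds the highest value in 26 rows, up to 16438 RPKM for Umod.

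**Figure D3:**
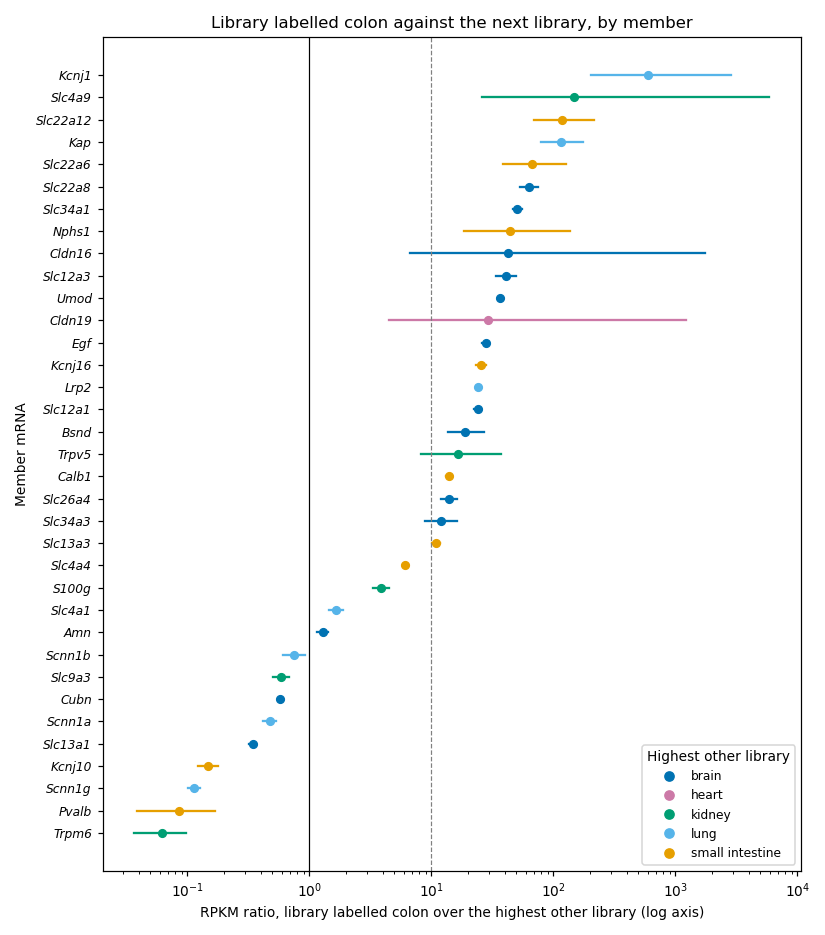
Ratio of RPKM in the colon-labelled library to the highest other library for each member (log axis), coloured by the label of that other library, with bars for the 95% counting interval, a solid line at 1 and a dashed line at 10. The ratios run from 0.0617 for Trpm6 to 594 for Kcnj1, and the widest bars belong to members with 1 read in the other library.

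Nphs1 encodes nephrin, the adhesion protein that bridges neighbouring podocyte foot processes. Its RPKM was 7.66 in the colon-labelled, 0.130 in the heart-labelled and 0.174 in the small intestine-labelled library, with no reads in the brain-, kidney- and lung-labelled libraries. The colon-labelled library thus stood alone at 130 reads against at most 5 elsewhere, a ratio of 44.1 (18.4 to 138) to the next library. A further 6 podocyte genes peaked under other labels. Podxl, a sialomucin that endothelium also makes, peaked in the lung-labelled library at 323 RPKM, and Cd2ap, a slit diaphragm adaptor found in many cells, in the brain-labelled library at 79.6 RPKM. Synpo, Magi2 and Ptpro were highest in the small intestine-labelled library, where brain markers peaked, at 54.9, 16.0 and 16.4 RPKM. The transcription factor gene Wt1 had no reads in the colon-labelled library and its highest value, 2.28 RPKM, in the heart-labelled one.

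In the proximal tubule group, 10 of 13 members were highest in the colon-labelled library and 8 of them at least 10-fold above every other library. Slc34a1, the main sodium-phosphate cotransporter of the brush border, had 1361 RPKM there, 26.8 in the brain-labelled, 2.24 in the heart-labelled, 4.00 in the kidney-labelled, 5.62 in the lung-labelled and 4.38 in the small intestine-labelled library. The brain-labelled library was second and the others lay close together, and the ratio to the second was 50.9 (46.7 to 55.5). Its relative Slc34a3 was far less dense, with 35.5 RPKM in the colon-labelled library, 2.97 in the brain-labelled and at most 0.512 elsewhere. Within the colon-labelled library Slc34a1 exceeded Slc34a3 38.4-fold (34.2 to 43.3) in RPKM.

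The organic anion carriers were dense in the colon-labelled library and sparse in all others. Slc22a6 and Slc22a8 encode OAT1 and OAT3, which take up drugs and metabolites from blood, and their genes lie 5814 bases apart on chromosome 19 of GRCm39. Slc22a6 had 70.2 RPKM in the colon-labelled library and 1.04 in the small intestine-labelled library, with 0 to 3 reads in the other libraries. Slc22a8 had 503 RPKM in the colon-labelled library, 7.94 and 5.85 in the brain-labelled and small intestine-labelled libraries and 0.152 to 0.321 in the rest. Slc22a8 was thus the denser of the pair, 7.16-fold (6.53 to 7.87) in the colon-labelled library. Slc22a12, the urate transporter URAT1, had 130 RPKM from 969 reads in the colon-labelled library, 14 reads in the small intestine-labelled library and at most 1 read elsewhere, a ratio of 117 (69.7 to 216).

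Kap encodes an androgen-regulated protein of mouse proximal tubule. It had 1159 RPKM in the colon-labelled library, 9.58 in the brain-labelled, 0.673 in the heart-labelled, 0.727 in the kidney-labelled, 9.98 in the lung-labelled and 2.16 in the small intestine-labelled library. The values outside the colon-labelled library rested on 2 to 37 reads, and the ratio to the lung-labelled library was 116 (80.1 to 175).

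The endocytic receptor of the proximal brush border consists of megalin (Lrp2), cubilin (Cubn) and amnionless (Amn), which carries cubilin to the membrane. Lrp2 had 2731 RPKM in the colon-labelled library, 68.1 in the brain-labelled, 3.13 in the heart-labelled, 2.62 in the kidney-labelled, 112 in the lung-labelled and 1.24 in the small intestine-labelled library. With a CDS of 13980 nt it took 3.82% (Wilson interval 3.80 to 3.84) of all reads of the colon-labelled library, more than Umod, although it ranked only 35 by RPKM. Its second library was the lung-labelled one, 24.3-fold (23.9 to 24.8) lower, where all 6 alveolar markers were highest, with a summed 66640 RPKM against 5.32 to 389 elsewhere. Their part in the Lrp2 value was not tested.

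Cubn ran the other way, with 269 RPKM in the brain-labelled library, 154 in the colon-labelled, 4.82 in the kidney-labelled, 2.42 in the small intestine-labelled and 0.101 and 0.202 in the heart-labelled and lung-labelled libraries. It was 1.74-fold (1.70 to 1.79) higher in the brain-labelled than in the colon-labelled library. Amn was 96.1 RPKM in the colon-labelled and 74.4 in the brain-labelled library, a ratio of 1.29 (1.17 to 1.43), and at most 5.09 elsewhere. The ratio of Lrp2 to Cubn in RPKM was therefore 17.7 in the colon-labelled and 0.253 in the brain-labelled library. In the lung-labelled library it was 555 (346 to 952), where Cubn had only 17 reads. Cubilin and amnionless also take up vitamin B12 with intrinsic factor in the ileum, and the ileal bile acid genes Fabp6, Slc10a2, Slc51a and Slc51b were all highest in the brain-labelled library. These 4 summed to 27020 RPKM there against 5.61 to 235 RPKM elsewhere, with 44.7 RPKM in the colon-labelled library, and the part of ileal cells in the Cubn and Amn values was not tested.

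The sulfate and dicarboxylate carriers split between libraries. Slc13a1, the apical sodium-sulfate cotransporter, had 395 RPKM in the brain-labelled library, 136 in the colon-labelled, 24.2 in the kidney-labelled, 4.33 in the small intestine-labelled and 0.206 and 0.145 in the heart-labelled and lung-labelled libraries. It was 2.89-fold (2.72 to 3.09) higher in the brain-labelled than in the colon-labelled library. Slc13a3, the basolateral dicarboxylate carrier, had 767 RPKM in the colon-labelled, 70.2 in the small intestine-labelled and 22.7 in the brain-labelled library, and 0.287 to 2.38 elsewhere. The order of the pair was turned, since Slc13a1 exceeded Slc13a3 17.4-fold in the brain-labelled library and Slc13a3 exceeded Slc13a1 5.62-fold in the colon-labelled and 16.2-fold in the small intestine-labelled library.

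Both acid-base transporters had reads in all 6 libraries. Slc4a4, the basolateral sodium-bicarbonate cotransporter NBCe1, had 701 RPKM in the colon-labelled library, 114 in the small intestine-labelled, 81.4 in the brain-labelled, 33.2 in the kidney-labelled, 10.5 in the heart-labelled and 8.89 in the lung-labelled library. Its lowest value was above the lowest value of every other member, and the ratio of the first to the second library was 6.15 (5.90 to 6.41). The second library was also where 3 of 6 astrocyte markers, Gfap, Slc1a2 and Slc1a3, were highest, with a summed 2553 RPKM for the 6 against 368 to 1018 elsewhere. Of the other astrocyte markers, Aldh1l1 peaked in the colon-labelled library at 697 RPKM, Gja1 in the heart-labelled at 986 RPKM and Aqp4 in the kidney-labelled at 403 RPKM. Gfap had reads in the small intestine-labelled library alone, and the part of astrocytes in the Slc4a4 and Slc13a3 values was not tested. Slc9a3, the apical sodium-proton exchanger NHE3 of both kidney and gut, had 32.1 RPKM in the kidney-labelled and 18.8 in the colon-labelled library, 2.69 and 1.61 in the brain-labelled and heart-labelled and under 0.36 in the rest. It was 1.71-fold (1.46 to 2.00) higher in the kidney-labelled library, where all 6 surface colonocyte markers peaked at a summed 4405 RPKM against 34.3 to 682 elsewhere, and their part in it was not tested.

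All 7 members of the thick ascending limb were highest in the colon-labelled library, and 6 were at least 10-fold above every other. Umod encodes uromodulin, the most abundant protein of normal urine, and lies at chr7:119061934-119078505 on the minus strand of GRCm39. It had 16438 RPKM in the colon-labelled library, 449 in the brain-labelled, 8.82 in the heart-labelled, 10.9 in the kidney-labelled, 56.7 in the lung-labelled and 8.01 in the small intestine-labelled library. In the colon-labelled library it held rank 3 of all mRNAs by RPKM and 3.17% of all reads (Wilson interval 3.15 to 3.18). The second library, labelled brain, lay 36.6-fold (35.9 to 37.4) lower.

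Slc12a1, the sodium-potassium-chloride cotransporter NKCC2 that loop diuretics block, had 724 RPKM in the colon-labelled library, 30.1 in the brain-labelled and 0.200 to 3.16 elsewhere. Its ratio to the brain-labelled library was 24.0 (22.5 to 25.6). Kcnj1, the apical potassium channel ROMK that returns potassium to the lumen, had 196 RPKM from 1039 reads in the colon-labelled library and at most 3 reads in any other. The ratio to the lung-labelled library, with those 3 reads, was 594 (203 to 2887), and the brain-labelled and heart-labelled libraries had no reads. Bsnd, barttin, the subunit of the basolateral chloride channels, had 77.9 RPKM in the colon-labelled library, 4.08 in the brain-labelled, 2.98 in the small intestine-labelled and at most 1 read elsewhere. Egf, made as a membrane precursor in the limb and distal convoluted tubule, had 895 RPKM in the colon-labelled library, 32.1 in the brain-labelled and 1.15 to 7.40 in the rest.

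Cldn16 and Cldn19, the claudins that let magnesium and calcium pass between cells of the limb, were the least dense members of the segment. Cldn16 had 5.67 RPKM from 18 reads and Cldn19 had 5.29 RPKM from 16 reads in the colon-labelled library. Outside it, each had 1 read in 1 library, Cldn16 in the brain-labelled and Cldn19 in the heart-labelled library. Their ratios to that library were 42.5 (6.71 to 1771) and 29.1 (4.52 to 1219). Against libraries without reads the bounds were lower, at least 10.1-fold for Cldn16 and at least 8.98-fold for Cldn19 over the kidney-labelled library, which kept Cldn19 below the 10-fold count. Both rest on few reads.

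The distal convoluted and connecting tubule group was less uniform, with 5 of 8 members highest in the colon-labelled library and 4 at least 10-fold above the rest. Slc12a3, the sodium-chloride cotransporter NCC that thiazides block, had 149 RPKM in the colon-labelled library, 3.66 in the brain-labelled, 1.05 in the kidney-labelled and 0.0813 to 0.301 elsewhere, a ratio of 40.8 (33.8 to 49.5) to the second. Within the colon-labelled library Slc12a1 exceeded Slc12a3 4.85-fold (4.63 to 5.09) in RPKM.

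Kcnj10 (Kir4.1) and Kcnj16 (Kir5.1) form the basolateral potassium channel of the distal convoluted tubule, and Kir4.1 also carries the potassium conductance of astrocytes. Kcnj10 had 173 RPKM in the small intestine-labelled library, 25.8 in the colon-labelled, 22.3 in the brain-labelled, 4.41 in the kidney-labelled and 0.860 in the heart-labelled library, with no reads in the lung-labelled library. Kcnj16 had 1161 RPKM in the colon-labelled library, 45.5 in the small intestine-labelled, 8.83 in the brain-labelled and 0.103 to 0.583 elsewhere. The partners thus peaked in different libraries, with Kcnj16 at 45.0-fold (37.9 to 53.9) the RPKM of Kcnj10 in the colon-labelled library and Kcnj10 at 3.81-fold (3.42 to 4.25) that of Kcnj16 in the small intestine-labelled library. The latter is the library in which 3 of the 6 astrocyte markers peaked, as given above, and the part of astrocytes in it was not tested.

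The calcium carriers of the connecting tubule include the apical channel Trpv5 and the buffers calbindin-D28k (Calb1) and calbindin-D9k (S100g). Trpv5 had 9.01 RPKM from 88 reads in the colon-labelled library, 0.547 from 9 reads in the kidney-labelled library, 1 read in the heart-labelled library and none elsewhere. Calb1 was dense, with 3170 RPKM in the colon-labelled library, 227 in the small intestine-labelled, 53.6 in the brain-labelled, 2.03 in the heart-labelled, 1.01 in the kidney-labelled and 0.826 in the lung-labelled library. Calb1 is also a marker of cerebellar Purkinje cells, and its ratio of the first to the second library was 13.9 (13.2 to 14.8).

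S100g was spread over 4 libraries, with 512 RPKM in the colon-labelled, 132 in the kidney-labelled, 124 in the brain-labelled, 80.8 in the lung-labelled, 4.64 in the heart-labelled and 1.10 in the small intestine-labelled library. The colon-labelled library was 3.87-fold (3.32 to 4.52) above the second. Its CDS is the shortest of the set, 237 nt without the stop codon, so its 512 RPKM came from only 547 reads, while 11180 reads gave the 3170 RPKM of Calb1. The CDS is printed to show how little sequence these counts rest on, with start and stop codons in capitals. It comes from GENCODE release M39 on GRCm39, where the gene lies at chrX:161744988-161747617 on the minus strand.
S100g: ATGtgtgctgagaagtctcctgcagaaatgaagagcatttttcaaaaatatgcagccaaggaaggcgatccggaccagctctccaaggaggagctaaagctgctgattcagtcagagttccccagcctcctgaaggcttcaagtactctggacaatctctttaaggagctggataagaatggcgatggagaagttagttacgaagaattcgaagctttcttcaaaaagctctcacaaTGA

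Pvalb, parvalbumin, marks the early distal convoluted tubule and fast-spiking inhibitory neurons. It had 70.2 RPKM from 177 reads in the small intestine-labelled library, 6.05 RPKM from 9 reads in the colon-labelled, 1.85 in the heart-labelled library and no reads elsewhere. It was the only member at least 10-fold above every other in a library not labelled colon, with a ratio of 11.6 (5.97 to 25.8). In the small intestine-labelled library 5 of 6 markers of inhibitory neurons and Purkinje cells were highest, with a summed 580 RPKM against 6.24 to 93.6 elsewhere, led by Gad1 at 380 RPKM. The other marker, Car8, peaked in the lung-labelled library at 92.6 RPKM. It had 60.7 RPKM in the small intestine-labelled and 58.2 RPKM in the kidney-labelled library. Pcp2 had reads in the small intestine-labelled library alone, 29 of them. The part of inhibitory neurons and Purkinje cells in the Pvalb and Calb1 values was not tested.

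Trpm6, the channel kinase for magnesium uptake in distal tubule and large intestine, was the member least dense in the colon-labelled library. It had 11.2 RPKM in the kidney-labelled, 9.27 in the brain-labelled, 8.68 in the lung-labelled, 0.693 in the colon-labelled, 0.280 in the small intestine-labelled and 0.181 in the heart-labelled library. The first 3 values came from 408 to 600 reads and the colon-labelled value from 19. The kidney-labelled library exceeded the colon-labelled one 16.2-fold (10.3 to 27.1) and the brain-labelled one only 1.21-fold (1.07 to 1.36).

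In the collecting duct group 3 of 6 members were highest in the colon-labelled and 3 in the lung-labelled library. Scnn1a, Scnn1b and Scnn1g encode the alpha, beta and gamma subunits of the epithelial sodium channel ENaC, which is rate limiting for sodium uptake in collecting duct, airway and distal colon. Scnn1a had 74.4 RPKM in the lung-labelled, 41.8 in the kidney-labelled, 35.2 in the colon-labelled, 7.84 in the brain-labelled, 1.57 in the heart-labelled and 1.18 in the small intestine-labelled library. Scnn1b had 20.7 RPKM in the lung-labelled, 15.5 in the colon-labelled, 3.79 in the kidney-labelled and 0.830 in the heart-labelled library, and Scnn1g had 307, 34.8, 0.268 and 2.67 RPKM in the same libraries. Neither had reads in the brain-labelled or small intestine-labelled library.

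The balance of the 3 subunits differed between libraries. In the colon-labelled library Scnn1g and Scnn1a were level, with a ratio of 0.988 (0.844 to 1.16). In the lung-labelled library Scnn1g exceeded Scnn1a 4.13-fold (3.88 to 4.41) and Scnn1b 14.8-fold (13.2 to 16.7), and in the kidney-labelled library Scnn1a exceeded Scnn1g 156-fold (60.6 to 573) and Scnn1b 11.04-fold (8.38 to 14.8). Scnn1b and Scnn1g lie 96190 bases apart on chromosome 7. Alveolar markers peaked in the lung-labelled and surface colonocyte markers in the kidney-labelled library, as given above, and their part in the subunit balance was not tested.

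**Figure D4:**
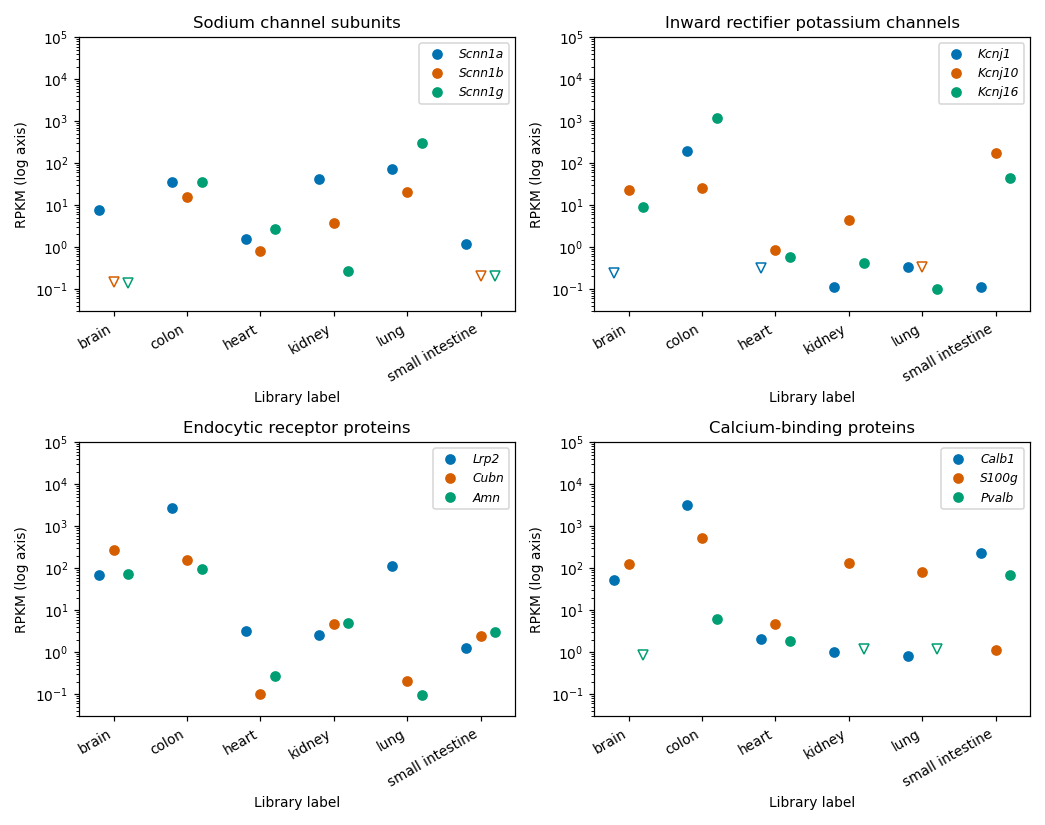
RPKM (log axis) in each library, by label, for 4 sets of 3 functionally related members, the sodium channel subunits, inward rectifier potassium channels, endocytic receptor proteins and calcium-binding proteins. Filled circles are RPKM and open triangles mark the RPKM of 3 reads where a library had none. Scnn1g stands above the other subunits in the lung-labelled library at 307 RPKM and below them in the kidney-labelled library at 0.268, from 4 reads.

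Intercalated cells exchange chloride for bicarbonate. Slc26a4, the apical exchanger pendrin of bicarbonate-secreting cells, had 114 RPKM in the colon-labelled library, 8.20 in the brain-labelled, 4.81 in the lung-labelled, 1.29 in the small intestine-labelled and 0.104 and 0.113 in the heart-labelled and kidney-labelled libraries, a ratio of 13.9 (12.0 to 16.2) to the second. Slc4a9, a basolateral exchanger of the same cells, had 6.84 RPKM from 88 reads in the colon-labelled library, 1 read each in the kidney-, lung- and small intestine-labelled libraries and none in the others. Its ratio to the kidney-labelled library was 148 (25.9 to 5917), and it was at least 53.3-fold higher than in the heart-labelled library, which had no reads.

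Slc4a1, the basolateral exchanger AE1 of acid-secreting cells and band 3 of red blood cells, had 38.6 RPKM in the colon-labelled, 23.3 in the lung-labelled, 1.08 in the brain-labelled, 1.05 in the heart-labelled, 0.798 in the small intestine-labelled and 0.0946 in the kidney-labelled library. The first exceeded the second 1.65-fold (1.46 to 1.88). Of 5 erythroid markers with values, 4 were highest in the lung-labelled library, led by the globin Hbb-bs at 309 RPKM. The list summed to 424 RPKM there, 79.9 RPKM in the colon-labelled library and 2.45 to 43.8 RPKM elsewhere, and the part of red blood cells in the Slc4a1 values was not tested.

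Summed over the 35 members, RPKM was 31492 in the colon-labelled library, 1714 in the brain-labelled, 744 in the small intestine-labelled, 721 in the lung-labelled, 326 in the kidney-labelled and 52.9 in the heart-labelled library. In the colon-labelled library the thick ascending limb gave 58.2% of the sum, the proximal tubule 25.0%, the distal group 16.0%, the collecting duct 0.778% and Nphs1 0.0243%. Umod dominated this split, and without it the proximal tubule gave 52.2% and the thick ascending limb 12.6%. The collecting duct sum was the only segment sum not highest in the colon-labelled library, at 245 RPKM against 431 in the lung-labelled library, most of it Scnn1g.

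**Figure D5:**
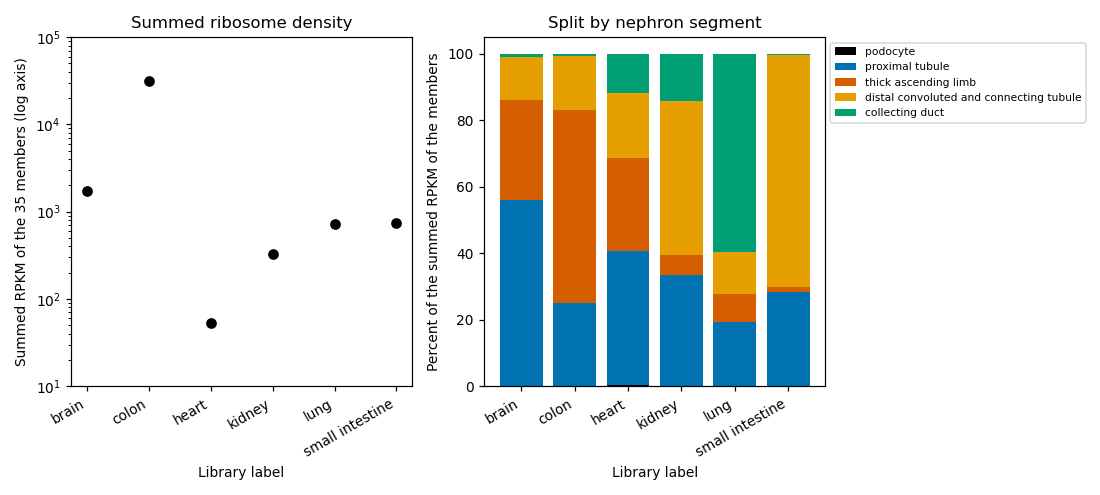
Left, summed RPKM of the 35 members (log axis) in each library by label. Right, percent of that sum by nephron segment in the same libraries, as stacked bars from podocyte (at most 0.245%, not visible) at the bottom to collecting duct at the top. The sum is 31492 in the colon-labelled library, and the collecting duct share is largest in the lung-labelled library at 59.7%.

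The brain-labelled library, in which small intestine markers peaked, was second for many members, often at a few percent of the first. Over the 22 members highest in the colon-labelled library with at least 100 reads there, its RPKM was 0 to 77.4% of the colon-labelled value with a median of 2.61%, and 10 of the 22 lay between 1% and 5%. Since the 22 were chosen for being highest in the colon-labelled library, each percent had to lie under 100. The same percents were not taken over all mRNAs, so they are not shown to be particular to the members. Umod was at 2.73%, Lrp2 at 2.49%, Slc12a3 at 2.45%, Slc34a1 at 1.97% and Calb1 at 1.69%. Above 5% were Bsnd at 5.25%, Slc26a4 at 7.18%, Slc34a3 at 8.38%, Slc4a4 at 11.6%, S100g at 24.2% and Amn at 77.4%. Between 0 and 1% were Slc22a6 at 0.0819%, Kcnj16 at 0.761% and Kap at 0.827%. Nphs1, Slc22a12 and Kcnj1 had no reads in the brain-labelled library.

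A wider list of 49 other nephron genes was examined in the same way. Of these, 48 had a value, 35 were highest in the colon-labelled library and 18 were at least 10-fold above every other library. Over all mRNAs with reads, 14.4% were highest in the colon-labelled library. Of those with an RPKM of at least 1 anywhere, 1.4% were at least 10-fold above every other library in it. By segment, the counts highest and at least 10-fold higher were 1 and 0 of 7 for podocytes, 14 and 9 of 16 for the proximal tubule, 7 and 3 of 8 for the thick ascending limb, 4 and 1 of 8 for the distal group and 9 and 5 of 9 for the collecting duct. The podocyte counts were about at the shares over all mRNAs. The median log2 ratio of the colon-labelled library to the highest other was 2.18 for this list. It was -1.91 over the 15238 mRNAs with an RPKM of at least 1 in any library.

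The densest proximal genes of this list were Gatm, which makes the creatine precursor, at 1598 RPKM and Miox, which starts inositol breakdown, at 1189 RPKM in the colon-labelled library, 21.6-fold and 20.4-fold above the second library. Slc6a19 and Slc7a9, amino acid carriers shared with small intestine, were highest in the brain-labelled library at 345 and 113 RPKM. In the limb, Sostdc1, a secreted BMP antagonist, had 395 RPKM and the prostaglandin receptor gene Ptger3 had 88.1 RPKM in the colon-labelled library, while Cldn10 was about level between the small intestine-labelled library at 24.0 RPKM and the colon-labelled at 22.1. Atp6v1g3, a proton pump subunit of intercalated cells, had 292 RPKM from 465 reads in the colon-labelled library and no reads anywhere else. With 3 reads set for 0, its fold over the kidney-labelled library was 261. Aqp3, the basolateral water channel of principal cells, had 113 RPKM there and 41.2 in the brain-labelled library.

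In the distal group of the list, 4 genes peaked under other labels. Atp2b1, a calcium pump of the plasma membrane, had 798 RPKM in the small intestine-labelled library, Slc8a1, the sodium-calcium exchanger of heart muscle, had 356 RPKM in the heart-labelled library, and Stk39, the kinase that activates salt cotransporters, had 82.2 RPKM in the heart-labelled library. Cnnm2 was 14.9 RPKM in the small intestine-labelled and 12.6 in the colon-labelled library. All 9 collecting duct genes of the list with a value had their highest RPKM in the colon-labelled library, among them Fxyd4, named after its value was seen, with 11 reads and a ratio to the kidney-labelled library of only 1.09 (0.461 to 2.47).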

How the data were processed

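For each of 6 mouse tissue Ribo-seq libraries, 1 per label, the deposited table gives RPKM computed by the authors for protein-coding mRNAs. Their Methods, written for macrophage libraries and taken to hold here, describe trimming with Cutadapt, removal of reads shorter than 15 nt, STAR alignment to a single mRNA per gene, that with the longest CDS (Ensembl GRCm39 release 107), removal of multi-mapped reads and of reads with more than 2 mismatches, P-site prediction by a random forest, and counting on the CDS. The submitters' processing notes name cutadapt, STAR and GRCm39. RPKM divides by all CDS reads, so 1 very abundant mRNA depresses the values of the rest of its library.

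Whole reads were recovered from the product of RPKM and CDS length for 100% of values, within 0.001 reads, and summed to between 4504853 and 10635031 per library. A missing mRNA was taken as 0 reads. Gene names and coordinates came from GENCODE release M39 on GRCm39, which named 18424 of 18437 gene IDs, and promoters from RefSeq on GRCm38.p6. Shares carry Wilson intervals, and ratios exact binomial intervals, at 95%. In folds against a library without reads, 3 reads were set for 0, and log2 ratios were taken after adding 0.1 RPKM to both values. Recovery of reads and the fold calls were checked on simulated data. The members, the other nephron genes, the marker lists and the promoter motifs were chosen with earlier results of these data known. All members were named, with the 2 densest other nephron genes per segment and those that peaked outside the colon-labelled library. Results that need certain withheld items are not reported here. Other settings, 24 in all, covered scaling, thinning, filters, pseudocount, fold and weighting, and 2 more were added after the data were seen. Python 3.11.15 with numpy 2.4.6, pandas 2.3.3, scipy 1.17.1 and matplotlib 3.10.9 was used.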

Additional observations from a re-analysis of the deposited data

How the results depend on the processing

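The 26 members highest in the colon-labelled library stayed 26 with Kri1, which held 0.400% to 22.1% of the reads of a library, left out of the totals, with median-of-ratios and upper quartile scaling, and after thinning to the lowest total, and no member changed its highest library under these. Median-of-ratios factors ran from 0.878 for the small intestine-labelled to 1.40 for the lung-labelled library. The count of members at least 10-fold above every other library was 19 to 20 under these scalings, 24 at 3-fold and 10 at 30-fold. With a floor of 100 reads in the other libraries, added after the data were seen, it was 14, and Nphs1, Slc34a3, Slc22a6, Bsnd, Cldn16, Trpv5 and Slc4a9 were lost, since their reads are too few. Requiring 100 reads in the highest library, also added, left 22 of the 26. The shares over all mRNAs, 14.4% highest and 1.4% at least 10-fold higher, were computed under the main settings only. They do not apply to the counts under other settings. The median log2 ratio of 3.81 became 2.91 with a pseudocount of 1 RPKM and 6.37 against the median of the other libraries, and it lay between 3.71 and 4.02 in the remaining alternatives. The segment shares of 58.2%, 25.0%, 16.0%, 0.778% and 0.0243%, from thick ascending limb, proximal tubule, distal group and collecting duct to podocyte, became 12.6%, 52.2%, 33.4%, 1.63% and 0.0509% without Umod. They became 41.3%, 53.0%, 5.02%, 0.622% and 0.0317% by reads in place of RPKM, where long CDSs such as Lrp2 weigh more, and 48.0%, 35.5%, 13.7%, 2.19% and 0.590% with the other nephron genes added. No count or median ratio changed direction under these settings, but the order of the segments did. Without Umod, and by reads, the proximal tubule share was above the thick ascending limb share. Without Umod the distal share was also above that of the limb.

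No paired analysis was possible because each label had 1 library. Without replicates, differences between animals, dissections and library preparations cannot be told apart from differences between tissues. The scarcity of low counts in the brain-, colon- and lung-labelled libraries limits members with few reads most, namely Cldn16, Cldn19, Trpm6 and Pvalb in the colon-labelled library, so a value without reads there does not show absence. The 1 mRNA per gene used by the authors hides isoforms, such as those of Slc4a4, and near-identical paralogs lose multi-mapped reads.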
